A study of Mus musculus with 12 samples.

Results

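The hippocampal change shared by stressed male mice and by the sons of stressed males was examined by setting 6 stress-lineage libraries against 6 control libraries, with generation as a covariate. These are all 12 libraries of the series. F0_Dep were mice in which stress had induced depression, and F0_Ctl were normal mice. F1_Dep were offspring of stress-induced depressed males, and F1_Ctl were offspring of normal males. Each group held 3 different mice. All were C57BL/6 males aged 8 weeks, and the hippocampus was taken from each for stranded mRNA sequencing. The kind of stress, the interval between stress and dissection, and the hour of dissection are unknown here. No father or litter is named, so F1 mice of 1 group may share one. Only the F1_Ctl labels carry sequencing lane names, so a difference in sequencing cannot be told apart from that group. F1_Dep mice are sons of stressed males, and no label says that they were stressed themselves.

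The hippocampus carries high levels of the corticosteroid receptors, which pass from cytoplasm to nucleus when bound by hormone and there switch target genes on or off. Genes that glucocorticoids raise in brain include the kinase gene Sgk1, the lipid droplet gene Plin4 and the clock gene Per1, many of them in astrocytes and other glia. Heat shock genes are switched on by heat shock factors when proteins misfold, and in brain they also respond to hormones and to activity. The dentate gyrus of the hippocampus keeps producing neurons in adult mice, and stress is known to slow that process.

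Library totals ran from 18277208 to 23083678 expected counts, and levels are given below as CPM, counts relative to library size after TMM scaling. The hippocampal markers Prox1, Calb1, Wfs1, Fibcd1, Grik4 and Slc17a7 were detected in every library. Tissue from beside the hippocampus was also present in unequal amounts. The summed level of 19 choroid plexus markers was 166 to 409 CPM in F0_Dep, 124 to 5359 in F0_Ctl, 3005 to 4877 in F1_Dep and 249 to 9714 in F1_Ctl. The 13 striatum markers summed to 1753 CPM in F1_Dep 1 and to at most 356 CPM in F0_Dep, F0_Ctl and F1_Ctl. F0_Ctl 3 and F1_Ctl 3 were highest within their groups in choroid plexus markers, and F1_Dep 1 in striatum markers. Results without these 3 libraries that stand apart are given below. That omission does not even out choroid plexus in F1. Its markers had median centred log2 levels of 2.67 and 2.72 in F1_Dep 2 and 3. They had −1.59 and 0.018 in F1_Ctl 1 and 2.

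Of 16164 genes tested, 78 passed an adjusted p of 0.05 (0.483%), of which 47 were higher (0.291%) and 31 lower (0.192%) in the stress-lineage groups. Over all genes, 45.8% had positive log2 fold changes. At an unadjusted p under 0.05 edgeR gave 1368 higher and 1802 lower (19.6% of all genes), and DESeq2 called 511 higher and 457 lower. Counts within gene lists below are to be read against these shares. The lists were chosen with earlier results of these data known, so such counts describe these data and do not test a list. The changes were mostly modest, with a median absolute log2 fold change of 0.51 without 2 pseudogenes described below and an absolute value above 1 in 11 of the 78, those 2 included. Among genes separated within both generations and with a mean of at least 2 CPM, the largest rises were those of Plin4, the inducible heat shock genes Hspa1b and Hspa1a, Hif3a, Etnppl and Sgk1. The largest falls under the same conditions were those of Fabp7, Hist1h1c, Scand1, Adamtsl2 and Hist3h2ba. With 1 library left out at a time, the number of called genes ranged from 5 without F0_Dep 2 to 1081 without F1_Ctl 1, and all 78 kept their sign in each of these fits. The count was 22 without F0_Dep 1, 19 without F0_Dep 3, 12, 158 and 25 without F0_Ctl 1, 2 and 3, 42, 11 and 9 without F1_Dep 1, 2 and 3, and 27 and 20 without F1_Ctl 2 and 3. The calls that held in all 12 omissions were Plin4, Cdkn1a, Tubb2b and the pseudogenes Gm28661 and Gm28437.

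**Figure D1:**
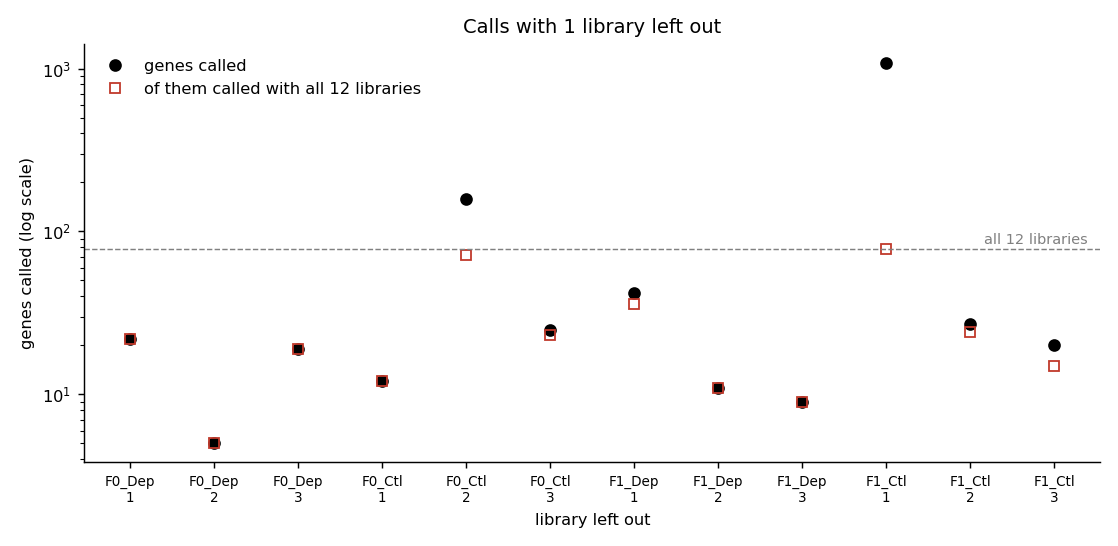
Number of genes called at an adjusted p under 0.05 (black points, log axis) when the library named on the x axis is left out, and how many of them were among the 78 called with all 12 libraries (red squares, dashed line at 78). The count was 5 without F0_Dep 2 and 1081 without F1_Ctl 1.

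The direction was shared by the generations for nearly all called genes. Of the 78, 77 had the same sign in F0 and in F1, and in 72 the 3 stress-lineage libraries lay wholly on 1 side of the 3 control libraries in each generation. Over all genes, 1.68% were separated upwards in this way and 1.8% downwards. All 6 stress-lineage libraries lay on 1 side of all 6 control libraries for 62 of the 78, against 0.934% of all genes upwards and 0.928% downwards. When each generation was read from the 4-group fit, 16 of the 78 passed in F0, 5 in F1, 2 in both and 59 in neither, so most calls rest on both generations together. The interaction passed the edgeR threshold for 0 of the 78 (0.0681% of all genes), and 3, Etnppl, Fabp7 and Per1, had an unadjusted interaction p under 0.05. The 78 include the pseudogenes Gm28661 and Gm28437, described below, which had at most 0.09 CPM in any F1 library. Their F1 sign and their interaction therefore carry no information about F1. The joint test on these same libraries picks genes that move alike. The shared signs, the separations and the interaction count among the 78 therefore follow in part from that choice. They do not show that the generations responded equally.

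**Figure D2:**
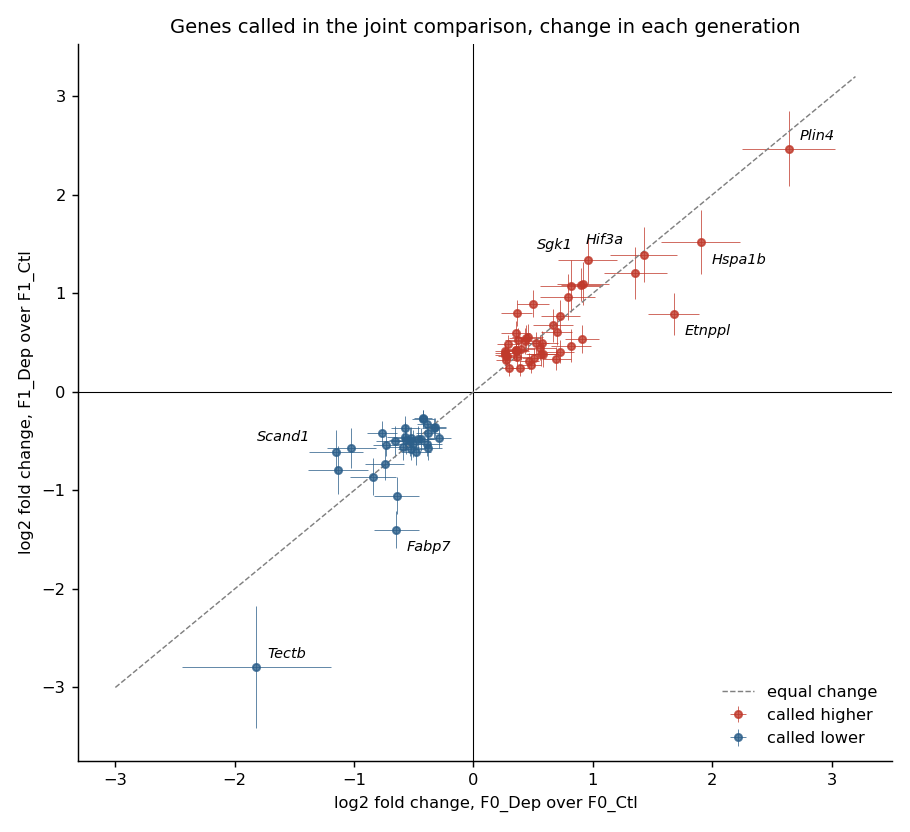
Log2 fold change of each called gene in F0 (x axis, F0_Dep over F0_Ctl) and in F1 (y axis, F1_Dep over F1_Ctl), with bars of 1 approximate SE and a dashed line of equal change. The 2 pseudogenes Gm28661 and Gm28437 are left out, and Plin4 lies at 2.64 and 2.47.

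Among these lists, chosen with earlier results known, glucocorticoid-induced genes made up the clearest group of rises. Of 23 tested members, 21 had positive log2 fold changes and 6 were called higher (against 0.291% of all genes): Plin4, Sgk1, Cdkn1a, Hif3a, Per1 and Nfkbia. Their median log2 fold change was 0.39, with 0.42 in F0 and 0.50 in F1, against −0.02 over all genes tested, of which 45.8% were positive. The number called was 5 without the 3 libraries that stand apart, where 20 members were positive, and between 2 (without F0_Dep 2) and 10 (without F1_Ctl 1) with 1 library left out. It was 3 without F0_Dep 1, F0_Ctl 1, F1_Dep 2 or F1_Dep 3.

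Plin4 encodes a perilipin, a protein that coats lipid droplets, and lies at chr17:56100591-56109803 on the minus strand (GRCm38). It had 14.8, 24.7 and 22.1 CPM in F0_Dep against 1.78, 4.47 and 3.59 CPM in F0_Ctl, and 18.5, 26.5 and 34.6 CPM in F1_Dep against 3.91, 3.08 and 7.39 CPM in F1_Ctl. Every stress-lineage library was above every control library. Its mean was 23.5 ± 6.89 CPM in stress-lineage and 4.04 ± 1.88 CPM in control libraries (SD, n = 6 each), and its log2 fold change of 2.55 ± 0.27 (SE, adjusted p = 0.00197) was the largest among the protein-coding genes called. Among 12 tested genes of the perilipin and lipid droplet list, Plin4 was the only call, and 4 members were positive. In the deposited FPKM values of the F0 libraries its log2 fold change was 1.11 (adjusted p = 0.0286).

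Sgk1, the serum- and glucocorticoid-regulated kinase that acts on ion channels and transporters, lies at chr10:21882184-21999903 on the plus strand. It had 143, 142 and 114 CPM in F0_Dep against 62.8, 54.8 and 87.8 CPM in F0_Ctl, and 203, 303 and 273 CPM in F1_Dep against 77.4, 85.6 and 145 CPM in F1_Ctl. The groups were separated within each generation, but F1_Ctl 3 was above all 3 F0_Dep libraries. The mean was 196 ± 77.3 CPM in stress-lineage and 85.6 ± 31.9 CPM in control libraries (SD, n = 6 each), with a log2 fold change of 1.15 ± 0.18 (SE, adjusted p = 0.022). The call of Sgk1 was lost without F0_Dep 1, F0_Dep 2, F0_Ctl 1, F1_Dep 2 or F1_Dep 3, with an adjusted p of 0.0123 to 0.0772 over the 12 omissions. Since Sgk1 is a classic target of the glucocorticoid receptor, the 250 bases before 1 of its 6 RefSeq transcript starts are shown (GRCm38.p6, chr10:21993640-21993889, plus strand), with the full palindromic receptor element, AGAACA and TGTTCT 3 bases apart, in capitals.
Sgk1: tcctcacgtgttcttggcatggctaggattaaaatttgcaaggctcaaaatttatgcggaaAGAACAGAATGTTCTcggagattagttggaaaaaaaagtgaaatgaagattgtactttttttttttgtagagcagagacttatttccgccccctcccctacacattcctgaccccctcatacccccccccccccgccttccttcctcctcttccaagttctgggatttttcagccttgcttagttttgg
The match, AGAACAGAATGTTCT, spans bases 189 to 175 before that start. The motif reads the same on both strands and was found in 3 of 32851 windows of this length (0.00913%), and in no other window of the 23 list genes with an entry. Its shorter core ACANNNTGT was found in 5.84% of windows, among them those of Fam107a, Lcn2, Mt1 and Sgk1. These are letter matches and say nothing of binding.

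Cdkn1a, which encodes the cell cycle inhibitor p21, had 13.2, 12.8 and 13.3 CPM in F0_Dep against 6.97, 5.85 and 8.17 CPM in F0_Ctl, and 11.3, 17 and 14.9 CPM in F1_Dep against 6.24, 6.77 and 7.29 CPM in F1_Ctl. The 2 sets of 6 did not overlap, and the log2 fold change was 0.996 ± 0.12 (SE, adjusted p = 0.00687). Of 15 tested p53 target genes it was the only call, with 9 of the 15 positive. Hif3a encodes an alpha subunit of the hypoxia-inducible factors. It had 11.7, 12 and 12 CPM in F0_Dep against 4.94, 4.75 and 3.59 CPM in F0_Ctl, and 5.35, 11.2 and 13.5 CPM in F1_Dep against 3.91, 3.25 and 4.29 CPM in F1_Ctl. F1_Dep 1 was the lowest stress-lineage library, yet still above every control, and the log2 fold change was 1.41 ± 0.19 (SE, adjusted p = 0.0134). Hif3a passed in every omission other than that of F0_Dep 2, where its adjusted p was 0.052.

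Per1, a repressor of the circadian clock that hormone also induces directly, had 108, 106 and 92 CPM in F0_Dep against 81, 91.3 and 65.9 CPM in F0_Ctl, and 98.6, 114 and 121 CPM in F1_Dep against 69.4, 65.2 and 56.7 CPM in F1_Ctl. All stress-lineage libraries were above all controls, by less in F0 (log2 fold change 0.36) than in F1 (0.80), and the joint value was 0.58 ± 0.11 (SE, adjusted p = 0.0457). The difference between the generations did not pass (interaction adjusted p = 0.325). Nfkbia encodes an inhibitor of NF-kappaB and is likewise induced by hormone, and it had 21.3, 21.8 and 17.1 CPM in F0_Dep against 14.6, 12.7 and 13.1 CPM in F0_Ctl, and 21.8, 24.1 and 22.7 CPM in F1_Dep against 13.8, 17.8 and 17.2 CPM in F1_Ctl. Its log2 fold change was 0.53 ± 0.09 (SE, adjusted p = 0.0291), with groups separated within each generation. The call of Per1 held in 2 of 12 omissions, those of F0_Ctl 2 and F1_Ctl 1, and that of Nfkbia was lost without F0_Dep 1, F0_Dep 2, F0_Ctl 1, F0_Ctl 3, F1_Dep 2, F1_Dep 3 or F1_Ctl 3. Adjusted p over the omissions was 0.0209 to 0.127 for Per1 and 0.0167 to 0.127 for Nfkbia. In the F0 FPKM values the change of Per1 was 0.15 (adjusted p = 0.455) and that of Nfkbia 0.40 (adjusted p = 0.0688).

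The other list members did not pass. Fkbp5, a co-chaperone that damps the receptor, had 61.8, 73.8 and 74.7 CPM in F0_Dep against 49.8, 53.2 and 46.9 CPM in F0_Ctl, and 44.9, 54.4 and 57.1 CPM in F1_Dep against 59.3, 47.5 and 46.9 CPM in F1_Ctl. It was separated in F0 alone, and its joint log2 fold change was 0.26 ± 0.11 (SE, adjusted p = 0.213). Klf15 had a log2 fold change of 0.56 (adjusted p = 0.0861), Sult1a1 of 0.70 (adjusted p = 0.0762), Errfi1 of 0.35 (adjusted p = 0.0591) and Tsc22d3, which encodes the hormone-induced leucine zipper protein GILZ, of 0.35 (adjusted p = 0.168). The metallothionein genes Mt1 (−0.23, adjusted p = 0.427) and Mt2 (−0.39, adjusted p = 0.216) were the 2 negative members. The receptors did not pass. Nr3c1, the glucocorticoid receptor, had 101 ± 8.23 CPM in stress-lineage and 102 ± 20.3 CPM in control libraries (SD, n = 6 each), with a log2 fold change of −0.021 ± 0.12 (SE, adjusted p = 0.944). Nr3c2, the mineralocorticoid receptor, had a log2 fold change of −0.095 ± 0.12 (SE, adjusted p = 0.698), and Crhr1, a receptor of corticotropin-releasing hormone, of −0.067 ± 0.21 (SE, adjusted p = 0.891). Of 18 circadian clock genes, 14 were positive with a median log2 fold change of 0.13, and Per1 was the only call; Per2 had 0.61 (adjusted p = 0.0682) and Cry1 0.41 (adjusted p = 0.0906).

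**Figure D3:**
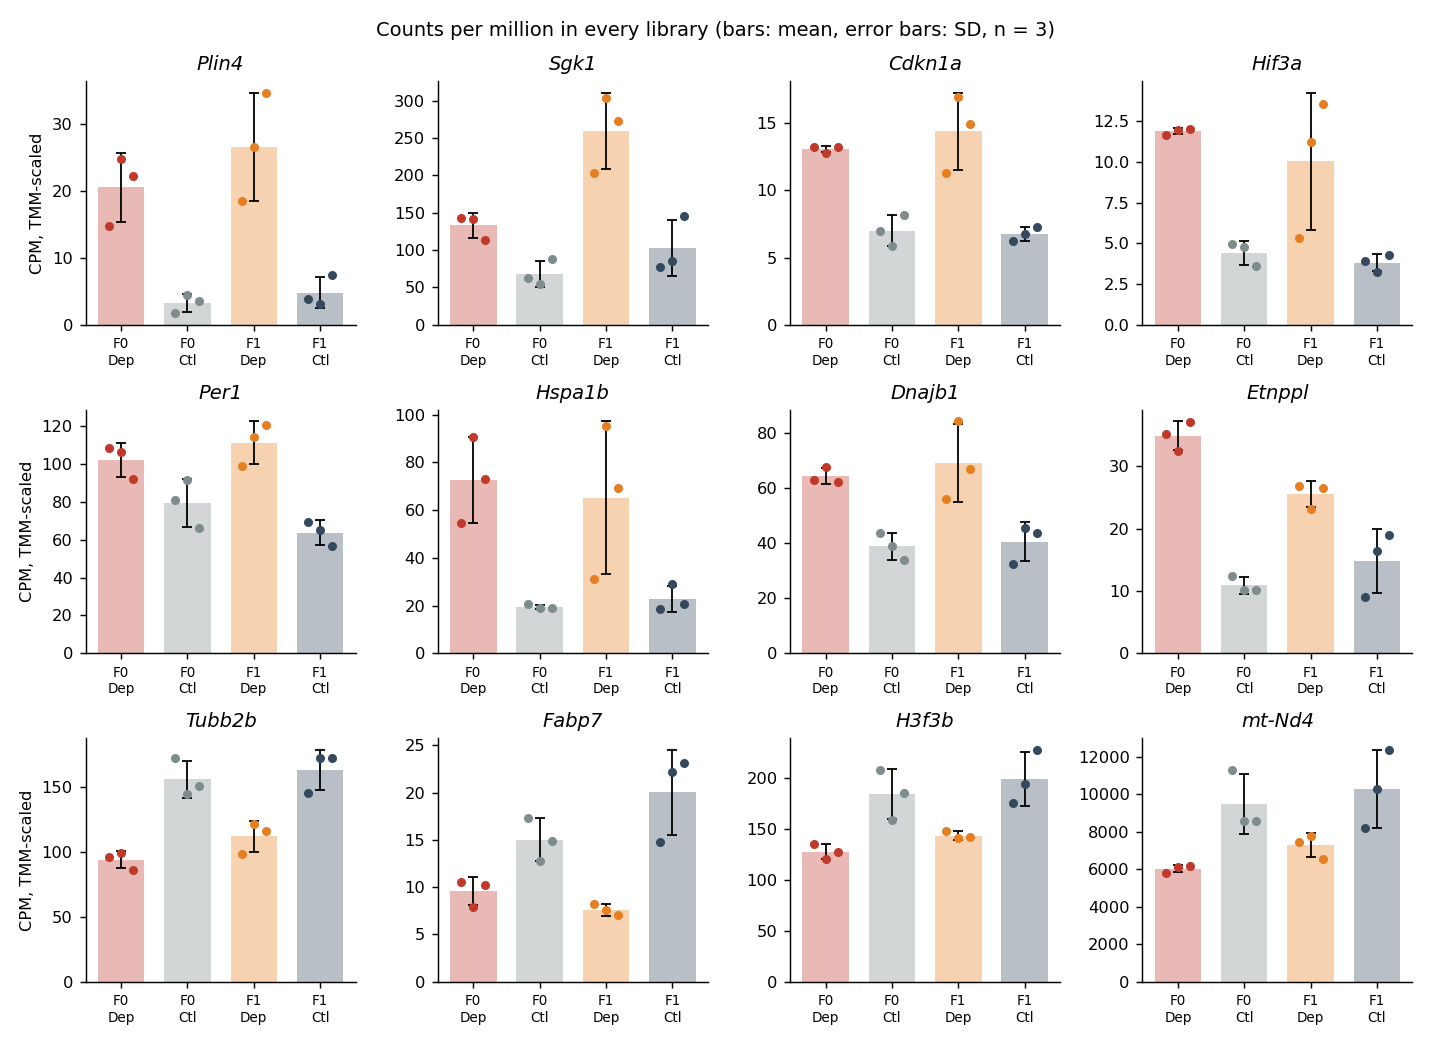
CPM of 12 called genes in every library (points), with bars for the mean and error bars for the SD of 3 mice; F0_Dep stands left of F0_Ctl and F1_Dep left of F1_Ctl. Plin4 lies at 14.8 CPM or more in the stress-lineage groups and at 7.39 or less in the controls.

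Heat shock chaperones formed the next group of rises. Of 16 tested, 14 were positive, against 45.8% of all genes. Called higher were 3, Hspa1b, Hspa1a and Dnajb1, against 0.291% of all genes, and the list median log2 fold change was 0.16. All 3 calls stood without the 3 libraries that stand apart. With 1 library left out, the number called ran from 0 without F0_Dep 2 to 4 without F1_Ctl 1, and it was 1 without F1_Dep 3. Hspa1b and Hspa1a encode the inducible HSP70 chaperone and lie close together on chromosome 17, at chr17:34956436-34959238 and chr17:34969190-34972156, both on the minus strand. Their sequences are nearly identical, so how reads were shared between them is uncertain. Hspa1b had 54.5, 90.4 and 73.1 CPM in F0_Dep against 20.6, 18.8 and 18.9 CPM in F0_Ctl, and 31.3, 95.2 and 69 CPM in F1_Dep against 18.7, 29.1 and 20.6 CPM in F1_Ctl. Hspa1a had 48.9, 65.3 and 47.9 CPM in F0_Dep against 22.3, 18.2 and 22.7 CPM in F0_Ctl, and 30.3, 70.7 and 54.8 CPM in F1_Dep against 20.4, 28.3 and 18.8 CPM in F1_Ctl. For both genes all stress-lineage libraries were above all control libraries, with F1_Dep 1 the lowest of the stress-lineage libraries. The log2 fold change was 1.71 ± 0.23 (SE, adjusted p = 0.0134) for Hspa1b and 1.28 ± 0.18 (SE, adjusted p = 0.0164) for Hspa1a. The call of Hspa1a was also lost without F0_Ctl 1 or F1_Dep 3.

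Dnajb1, the HSP40 partner that delivers clients to HSP70, had 62.9, 67.5 and 62.2 CPM in F0_Dep against 43.7, 38.9 and 33.7 CPM in F0_Ctl, and 56.1, 84.3 and 67 CPM in F1_Dep against 32.5, 45.3 and 43.7 CPM in F1_Ctl. Its 2 sets of 6 libraries did not overlap, the log2 fold change was 0.75 ± 0.11 (SE, adjusted p = 0.0208), and its call was lost without F0_Dep 2 or F1_Dep 3. The small heat shock protein gene Hspb1 had a log2 fold change of 0.70 (adjusted p = 0.098), Hsph1 of 0.29 (adjusted p = 0.0583) and the co-chaperone gene Bag3 of 0.47 (adjusted p = 0.11). The constitutive Hspa8 (−0.01, adjusted p = 0.934) and Hsp90aa1 (0.08, adjusted p = 0.644) stood close to 0. The 250 bases before the RefSeq starts of Hspa1a (chr17:34972157-34972406) and Hspa1b (chr17:34959239-34959488), minus strand of GRCm38.p6, are shown because these 2 genes moved together. Capitals mark the heat shock element pair GAANNTTC.
Hspa1a: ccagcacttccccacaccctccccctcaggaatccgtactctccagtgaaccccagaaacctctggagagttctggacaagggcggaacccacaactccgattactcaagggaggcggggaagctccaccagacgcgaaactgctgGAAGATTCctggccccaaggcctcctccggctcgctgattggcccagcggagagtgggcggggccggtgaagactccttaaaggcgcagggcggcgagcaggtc
Hspa1b: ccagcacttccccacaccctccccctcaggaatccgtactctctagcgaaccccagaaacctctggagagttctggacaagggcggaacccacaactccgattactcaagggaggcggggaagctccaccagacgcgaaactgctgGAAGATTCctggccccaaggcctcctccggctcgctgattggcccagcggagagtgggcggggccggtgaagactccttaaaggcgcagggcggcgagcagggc
The 2 windows share 247 of 250 bases. Each holds the match GAAGATTC at bases 104 to 97 before the start. GAANNTTC reads the same on both strands and was found in 6.69% of all 32851 windows, and in 6 of 18 windows of the 13 chaperone genes with an entry: those of Dnaja1, Hspa1a, Hspa1b, Hspb1, Hspd1 and Hspe1. The other order, TTCNNGAA, was found in 7.17% of all windows and in 4 of these 18. A match is a description of the letters, and binding was not measured.

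Genes of the endoplasmic reticulum stress response leaned the same way, with 16 of 18 positive (45.8% of all genes) and a median log2 fold change of 0.16. In this list 2 were called higher (0.291% of all genes). Herpud1, which helps to clear misfolded proteins from the endoplasmic reticulum, had 50.2, 51.7 and 53.7 CPM in F0_Dep against 42.1, 38.5 and 39.2 CPM in F0_Ctl, and 49.8, 67.8 and 64.6 CPM in F1_Dep against 39, 40.1 and 47.3 CPM in F1_Ctl. Hyou1, an HSP70-like chaperone of that compartment, had 95.7, 107 and 109 CPM in F0_Dep against 78.2, 87.8 and 77.4 CPM in F0_Ctl, and 94, 116 and 113 CPM in F1_Dep against 87.5, 77.2 and 87 CPM in F1_Ctl. Both were separated over all 12 libraries, with log2 fold changes of 0.45 ± 0.083 (SE, adjusted p = 0.0406) and 0.36 ± 0.07 (SE, adjusted p = 0.0482). Each call held, among the omissions, only without F0_Ctl 2, F1_Dep 1 or F1_Ctl 1, and adjusted p ran over 0.0201 to 0.127 for Herpud1 and 0.02 to 0.15 for Hyou1. Hspa5, the main chaperone of the endoplasmic reticulum, did not pass with 0.50 (adjusted p = 0.122). No member passed without any 1 of F0_Dep 1, 2 or 3, F0_Ctl 1 or 3, F1_Dep 2 or 3, or F1_Ctl 2, and 4 passed without the 3 libraries that stand apart.

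Etnppl, the enzyme that breaks down phosphoethanolamine and an astrocyte gene, was called higher. It had 35.1, 32.5 and 37.1 CPM in F0_Dep against 12.5, 10.2 and 10.1 CPM in F0_Ctl, and 26.8, 23.2 and 26.6 CPM in F1_Dep against 9.01, 16.3 and 19 CPM in F1_Ctl. All stress-lineage libraries were above all controls, and the log2 fold change was 1.23 ± 0.19 (SE, adjusted p = 0.0235), with 1.68 in F0 and 0.79 in F1 (interaction adjusted p = 0.23). Of 14 tested astrocyte markers Etnppl was the only call, and 10 of the 14 were negative. Its call was lost without F0_Dep 1, F0_Dep 2, F0_Dep 3, F0_Ctl 1, F0_Ctl 3 or F1_Dep 3, with adjusted p of 0.0138 to 0.0807 over the 12 omissions. Acer2, a ceramidase of the Golgi, had 12.4, 13.7 and 12.4 CPM in F0_Dep against 8.04, 6.23 and 6.13 CPM in F0_Ctl, and 6.94, 13.3 and 12.3 CPM in F1_Dep against 5.06, 5.34 and 4.84 CPM in F1_Ctl. It was separated within each generation, with F1_Dep 1 again lowest of the stress-lineage libraries, and its log2 fold change was 1.01 ± 0.15 (SE, adjusted p = 0.0208). The call of Acer2 was lost without F0_Dep 2, F1_Dep 2, F1_Dep 3 or F1_Ctl 3 (adjusted p at most 0.0772).

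The other large rises were Scube1, which encodes a secreted and cell surface protein with EGF-like repeats, Noxred1 and Pcdhga5. Scube1 had 20.6, 24.8 and 30.8 CPM in F0_Dep against 10.3, 15.6 and 18.1 CPM in F0_Ctl, and 31.3, 27.8 and 29 CPM in F1_Dep against 18.7, 15.8 and 10.6 CPM in F1_Ctl, a log2 fold change of 0.88 ± 0.16 (SE, adjusted p = 0.0406). Noxred1 averaged 3.15 ± 0.423 CPM in stress-lineage and 1.65 ± 0.487 CPM in control libraries (SD, n = 6 each), a log2 fold change of 0.94 ± 0.18 (SE, adjusted p = 0.0482). Pcdhga5 averaged 20.1 ± 3.01 CPM in stress-lineage and 12.1 ± 1.41 CPM in control libraries (SD, n = 6 each), a log2 fold change of 0.72 ± 0.11 (SE, adjusted p = 0.0216). All 3 were separated over all 12 libraries. Pcdhga5 is 1 of the clustered protocadherin genes, which share exons, so its counts are uncertain. The call of Scube1 held, among the omissions, only without F0_Ctl 2, F0_Ctl 3 or F1_Ctl 1 (adjusted p up to 0.127), and that of Noxred1 only without F0_Ctl 2 or F1_Ctl 1 (up to 0.15). The call of Pcdhga5 was lost without F0_Dep 1, F0_Dep 2, F0_Ctl 1, F1_Dep 2, F1_Dep 3 or F1_Ctl 3 (up to 0.08).

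The falls included genes of immature neurons and progenitors. Of 15 tested members of that list, 14 were negative, the median log2 fold change was −0.37 (−0.26 in F0 and −0.53 in F1), and Tubb2b and Fabp7 were called lower. Of all 16164 genes, 8758 were negative and 0.192% were called lower. In bulk tissue, fewer cells of a type and less RNA per cell cannot be told apart. Tubb2b, a beta-tubulin of growing neurons, lies at chr13:34126748-34130466 on the minus strand. It had 96, 98.7 and 86.2 CPM in F0_Dep against 172, 145 and 151 CPM in F0_Ctl, and 98.5, 121 and 116 CPM in F1_Dep against 145, 172 and 172 CPM in F1_Ctl. All stress-lineage libraries were below all controls, and the log2 fold change was −0.64 ± 0.081 (SE, adjusted p = 0.00952), with adjusted p of 0.00605 to 0.0468 over the 12 omissions. Fabp7, a fatty acid binding protein of radial glia and astrocytes, lies at chr10:57784881-57788450 on the plus strand. It had 10.6, 7.87 and 10.3 CPM in F0_Dep against 17.4, 12.8 and 14.9 CPM in F0_Ctl, and 8.23, 7.53 and 7.02 CPM in F1_Dep against 14.8, 22.1 and 23.1 CPM in F1_Ctl. All stress-lineage libraries were below all controls, with a log2 fold change of −1.02 ± 0.17 (SE, adjusted p = 0.0284), −0.65 in F0 and −1.40 in F1 (interaction adjusted p = 0.247). The call of Fabp7 was lost without F0_Dep 2, F0_Ctl 1, F1_Dep 1, F1_Dep 2, F1_Dep 3, F1_Ctl 2 or F1_Ctl 3, with adjusted p up to 0.116.

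Markers more specific to newborn neurons did not pass. Dcx, a microtubule protein of migrating neurons, had a log2 fold change of −0.17 (adjusted p = 0.617). Igfbpl1 had −1.14 (adjusted p = 0.0638), Eomes, a marker of intermediate progenitors, −0.93 (adjusted p = 0.277), and the proliferation gene Mki67 −0.32 (adjusted p = 0.37). Between 1 and 3 members of the list were called lower with 1 library left out, and 1 without the 3 libraries that stand apart, where all 15 were negative. Mature dentate granule cell markers were negative for 12 of 12, yet their median was 0.10 in F0 and −1.17 in F1, with 0 called by edgeR. At an unadjusted p under 0.05 in edgeR 3 were lower, against 1802 of all 16164 genes, and DESeq2 called 1 lower. Prox1, the granule cell transcription factor, had 179.5, 149 and 217 CPM in F0_Dep against 178, 192 and 139 CPM in F0_Ctl, and 38.4, 113 and 71.2 CPM in F1_Dep against 240.4, 161 and 165 CPM in F1_Ctl. All 3 F1_Dep libraries were below all other libraries, and F0_Dep overlapped F0_Ctl. Both Tubb2b and Fabp7 stayed called with choroid plexus and striatum marker levels as covariates, and the part of unequal dentate content was not tested.

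Hist1h1c, a linker histone gene, had 10.5, 10.1 and 9.05 CPM in F0_Dep against 21.2, 18.7 and 25.2 CPM in F0_Ctl, and 16.5, 16.1 and 14.7 CPM in F1_Dep against 16.9, 24.4 and 40.6 CPM in F1_Ctl, a log2 fold change of −0.96 ± 0.18 (SE, adjusted p = 0.0419). Hist3h2ba, an H2B histone gene, had 10.3, 9.98 and 9.93 CPM in F0_Dep against 20.1, 11.5 and 15.6 CPM in F0_Ctl, and 9.05, 7.45 and 8.87 CPM in F1_Dep against 14.7, 19.6 and 18.5 CPM in F1_Ctl, a log2 fold change of −0.85 ± 0.14 (SE, adjusted p = 0.0288). H3f3b, a gene for the replacement histone H3.3 that the naming rule did not take and that was chosen after its values were seen, averaged 136 ± 10.1 CPM in stress-lineage and 192 ± 24.3 CPM in control libraries (SD, n = 6 each), a log2 fold change of −0.50 ± 0.08 (SE, adjusted p = 0.0252). In each of the 3 genes all stress-lineage libraries were below all controls. Calls of Hist1h1c and Hist3h2ba held in 2 of 12 omissions, those of F0_Ctl 2 and F1_Ctl 1, and that of H3f3b was lost without F0_Dep 1, F0_Dep 2, F0_Dep 3, F0_Ctl 1, F0_Ctl 3, F1_Dep 2, F1_Dep 3, F1_Ctl 2 or F1_Ctl 3 (adjusted p up to 0.101).

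Among the remaining falls, U2af1l4, a relative of the small subunit of the splicing factor U2AF, had 15.9, 14.1 and 14.7 CPM in F0_Dep against 24.2, 20.4 and 19.6 CPM in F0_Ctl, and 16.6, 15.4 and 16.5 CPM in F1_Dep against 22.4, 25 and 25 CPM in F1_Ctl. The sets did not overlap, the log2 fold change was −0.55 ± 0.074 (SE, adjusted p = 0.0134), and the call was lost only without F0_Dep 2 (adjusted p = 0.052). Tipin, which guards replication forks, averaged 6.57 ± 1.04 CPM in stress-lineage and 11 ± 1.41 CPM in control libraries (SD, n = 6 each), a log2 fold change of −0.74 ± 0.11 (SE, adjusted p = 0.0218). Adamtsl2, a secreted glycoprotein of the extracellular matrix, averaged 3.76 ± 0.634 CPM in stress-lineage and 6.8 ± 0.462 CPM in control libraries, a log2 fold change of −0.85 ± 0.13 (SE, adjusted p = 0.0218). Tbcc, a tubulin folding cofactor, averaged 9.52 ± 1.27 CPM in stress-lineage and 14.2 ± 2.07 CPM in control libraries, with −0.58 ± 0.094 (SE, adjusted p = 0.028). Fra10ac1 had −0.55 ± 0.087 (SE, adjusted p = 0.0242), and the SCAN domain gene Scand1 −0.88 ± 0.17 (SE, adjusted p = 0.0482). Of these 5, only Scand1 had overlapping sets, F1_Dep lying between 26.5 and 27.4 CPM and F0_Ctl 2 at 26.3 CPM. The call of Adamtsl2 was lost without F0_Dep 2, F0_Ctl 1, F1_Dep 2 or F1_Dep 3 (adjusted p up to 0.0694). The other calls held, among the omissions, only without F0_Dep 1, F0_Ctl 2, F1_Dep 1, F1_Ctl 1 or F1_Ctl 2 for Fra10ac1 (up to 0.0949), F0_Ctl 2, F0_Ctl 3, F1_Dep 1 or F1_Ctl 1 for Tipin (up to 0.08), F0_Ctl 2, F1_Dep 1 or F1_Ctl 1 for Tbcc (up to 0.115) and F0_Ctl 2 or F1_Ctl 1 for Scand1 (up to 0.15).

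Mitochondrially encoded genes, which specify core subunits of the respiratory chain, were lower as a group. Of 13 tested, 12 were negative, against 8758 of all 16164 genes. Called lower were 5 (0.192% of all genes), mt-Nd1, mt-Nd4, mt-Nd5, mt-Nd6 and mt-Co3. The list median log2 fold change was −0.53 (−0.56 in F0 and −0.44 in F1). The share of all counts in mitochondrially encoded genes was 5.11%, 5.32% and 5.09% in F0_Dep against 9.26%, 7.75% and 7.78% in F0_Ctl. It was 7.02%, 7.17% and 6.7% in F1_Dep against 7.45%, 9.22% and 10.9% in F1_Ctl. All 6 stress-lineage libraries were below all 6 controls, and a two-sided exact permutation test within generations gave p = 0.005, the smallest it can give. The mean share was 6.07 ± 0.995% in stress-lineage and 8.73 ± 1.32% in control libraries (SD, n = 6 each).

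mt-Nd4, a subunit of complex I, had 5811, 6108 and 6159 CPM in F0_Dep against 11305, 8563 and 8580.4 CPM in F0_Ctl, and 7479, 7791 and 6552 CPM in F1_Dep against 8214, 10282 and 12383 CPM in F1_Ctl, a log2 fold change of −0.58 ± 0.11 (SE, adjusted p = 0.0482). mt-Nd6 lies on the other strand of the mitochondrial genome, and its log2 fold change was −0.59 ± 0.1 (SE, adjusted p = 0.0291). mt-Co3, a subunit of complex IV, had −0.80 ± 0.16 (SE, adjusted p = 0.0482), but overlapped within F1, where F1_Ctl 1 with 6847 CPM lay below F1_Dep 1 with 6991 CPM. mt-Nd1 had −0.52 ± 0.10 (SE, adjusted p = 0.0482) and mt-Nd5 −0.40 ± 0.07 (SE, adjusted p = 0.036). The calls of mt-Nd4, mt-Co3, mt-Nd1 and mt-Nd5 held without F0_Ctl 2 or F1_Ctl 1 only, and that of mt-Nd6 without F0_Ctl 2, F1_Dep 1, F1_Ctl 1 or F1_Ctl 2. The number of list members called was 11 without F1_Ctl 1, 6 without F0_Ctl 2, 1 without F1_Dep 1 or F1_Ctl 2 and 0 in the other 8 omissions, and it was 1 without the 3 libraries that stand apart.

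Counts on nuclear copies of these genes differed in F0_Dep. The pseudogenes Gm28661 and Gm28437, copies of mitochondrial genes on chromosome 1 (chr1:24614885-24615565 and chr1:24613189-24613971), are among the 78 calls and have the smallest p. Gm28661 had 4253, 4119 and 4664 CPM in F0_Dep and 0 in every other library, and Gm28437 had 1455, 1398 and 2303 CPM in F0_Dep and at most 0.09 CPM elsewhere. In the F0 FPKM values their log2 fold changes were −0.17 (adjusted p = 0.422) and −0.29 (adjusted p = 0.181), so neither is read as changed here. Whether the F0_Dep counts were made in the same way as those of the other groups is unknown, and this bears on every F0 change in counts, the mitochondrial share included. With all copies in this region added, the mitochondrial share was 5.89 ± 0.0616% in F0_Dep against 8.47 ± 0.963% in F0_Ctl, and 7.14 ± 0.237% in F1_Dep against 9.44 ± 1.84% in F1_Ctl (SD, n = 3 each), and the exact permutation p stayed 0.005. In F0 FPKM values mt-Nd4 had −0.39 (adjusted p = 0.0882), mt-Co3 −0.29 (adjusted p = 0.172) and mt-Nd1 −0.29 (adjusted p = 0.158), lower without passing. Copies were added for the share alone, not gene by gene. Whether reads of mt-Co3 or of other called mitochondrial genes were counted on copies in F0_Dep was not tested.

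Cytosolic ribosomal protein genes and nuclear genes of oxidative phosphorylation leaned lower. Of all 16164 genes, 8758 were negative and 0.192% were called lower. All 81 ribosomal protein genes were negative with a median log2 fold change of −0.39, but Rpl5, a protein of the large subunit, was the only call. At an unadjusted p under 0.05 in edgeR, 65 of the 81 were lower, against 1802 of all 16164 genes. Rpl5 had 32.3, 29.2 and 31.4 CPM in F0_Dep against 44.6, 40.0 and 47.5 CPM in F0_Ctl, and 38, 31.9 and 29.1 CPM in F1_Dep against 43.1, 42.3 and 56.9 CPM in F1_Ctl, a log2 fold change of −0.52 ± 0.091 (SE, adjusted p = 0.036), with sets that did not overlap. Of 43 nuclear oxidative phosphorylation genes, 42 were negative with a median of −0.26, and Ndufa3, a complex I subunit, was the only call with −0.51 ± 0.10 (SE, adjusted p = 0.0482). In edgeR 28 of the 43 were lower at an unadjusted p under 0.05. The call of Rpl5 held, among the omissions, only without F0_Ctl 2, F1_Dep 1 or F1_Ctl 1, and that of Ndufa3 only without F0_Ctl 2 or F1_Ctl 1. Without F1_Ctl 1 alone, 57 of the 81 ribosomal protein genes were called lower, and 0 were called in 9 of the other omissions. Their share of counts was 0.87 ± 0.0847% in stress-lineage and 1.14 ± 0.253% in control libraries (SD, n = 6 each; exact permutation p = 0.04), and F0_Ctl 2 and F1_Ctl 1 lay within the stress-lineage range.

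**Figure D4:**
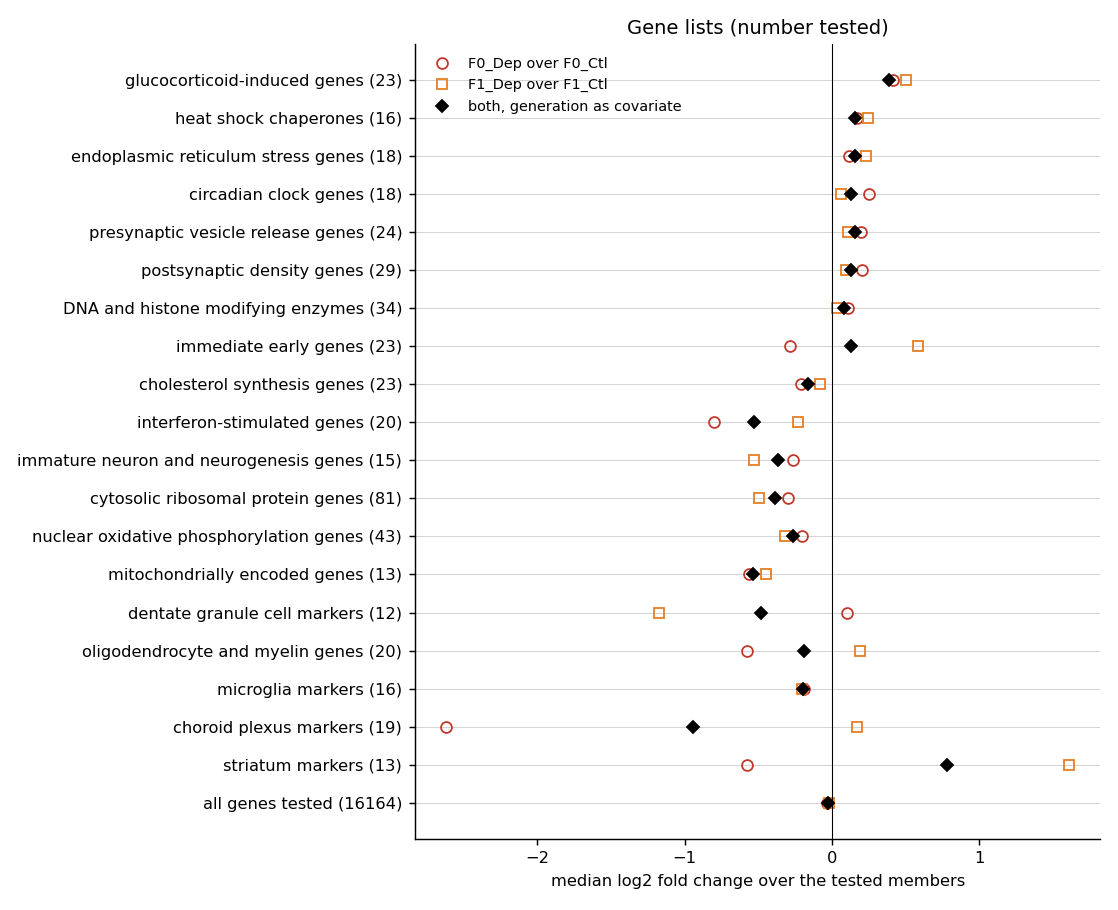
Median log2 fold change over the tested members of 19 gene lists and over all 16164 genes (number tested in brackets), for the joint comparison (black), F0_Dep over F0_Ctl (red circles) and F1_Dep over F1_Ctl (orange squares). Glucocorticoid-induced genes lie at 0.39 and mitochondrially encoded genes at −0.53, while choroid plexus markers lie at −2.62 in F0 and 0.17 in F1.

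The change also went with gene length. The median log2 fold change was −0.18 in the quintile of genes with the shortest exonic length (81 to 2381 bases) and 0.09 in the longest (7457 to 123179 bases). Of the 31 genes called lower, 18 lay in the shortest quintile, and of the 46 called higher that have a length, 17 lay in the longest. The median exonic length was 6199 bases for genes called higher and 1824 for genes called lower, against 4325 for all genes. The longest quintile minus the shortest was 0.161, 0.246 and 0.327 on the log2 scale in F0_Dep against −0.29, 0.158 and −0.159 in F0_Ctl. It was −0.015, 0.014 and 0.022 in F1_Dep against 0.081, −0.203 and −0.389 in F1_Ctl. F0_Dep lay just above the highest F0_Ctl library, the groups overlapped in F1, and the difference in means was 0.26 (two-sided exact permutation p = 0.04). F0_Ctl 2 and F1_Ctl 1, the controls nearest to the stress-lineage libraries in this measure, are the 2 libraries whose omission raised the number of calls most. The part of length in the lower values of ribosomal protein and mitochondrial genes was not tested.

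**Figure D5:**
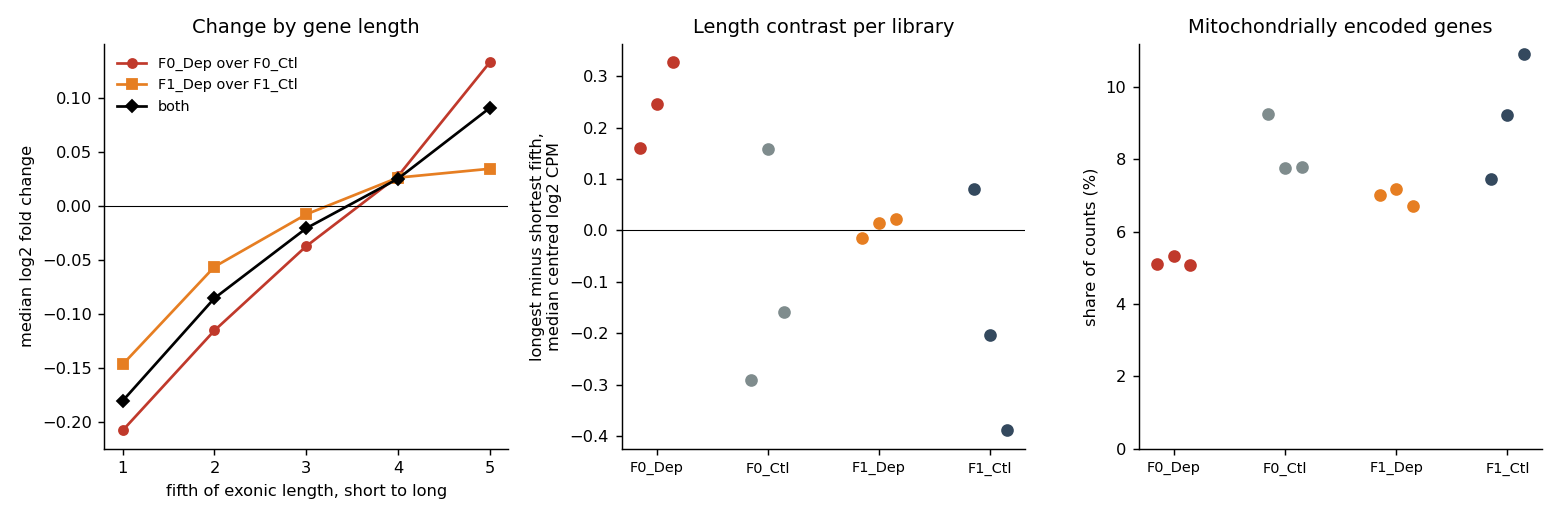
Left, median log2 fold change in quintiles of exonic length, shortest to longest. Middle, the longest minus the shortest quintile in each library (median centred log2 CPM); right, the percent of counts in mitochondrially encoded genes in each library, which is 5.09% to 7.17% in the stress-lineage and 7.45% to 10.9% in the control libraries.

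In the list of enzymes that modify DNA and histones, 23 of 34 tested members were positive (45.8% of all genes) with a median log2 fold change of 0.08. Hdac4 was the only call in that list, and 0.291% of all genes were called higher. Hdac4, a histone deacetylase that shuttles between nucleus and cytoplasm, lies at chr1:91928779-92195699 on the minus strand. It had 51.8, 68.3 and 64 CPM in F0_Dep against 42.2, 44.5 and 42.7 CPM in F0_Ctl, and 62.2, 60.2 and 59 CPM in F1_Dep against 45.8, 50.5 and 46.5 CPM in F1_Ctl. The sets of 6 did not overlap, and the log2 fold change was 0.43 ± 0.071 (SE, adjusted p = 0.0288). The call of Hdac4 was lost without F0_Dep 2, F0_Dep 3, F0_Ctl 1, F0_Ctl 3, F1_Dep 1, F1_Dep 2, F1_Dep 3 or F1_Ctl 3, with adjusted p up to 0.101. The DNA methyltransferases Dnmt1 (0.17, adjusted p = 0.283), Dnmt3a (0.19, adjusted p = 0.422) and Dnmt3b (−0.07, adjusted p = 0.894) and the acetyltransferase Ep300 (0.46, adjusted p = 0.0501) did not pass.

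Genes of neuronal activity and of the neurotrophin system gave no call by edgeR. By comparison, 19.6% of all genes had an unadjusted p under 0.05 in edgeR. Of 23 immediate early genes 0 were called by edgeR and 1 by DESeq2, with 3 higher and 1 lower at an unadjusted p under 0.05 in edgeR, and their median was −0.29 in F0 and 0.59 in F1. The joint median was 0.13 with all libraries and −0.14 without the 3 libraries that stand apart. Fos had 14.9, 16.9 and 14 CPM in F0_Dep against 29.1, 26.2 and 12.7 CPM in F0_Ctl, and 54.5, 43.2 and 30.8 CPM in F1_Dep against 15.7, 42.6 and 10.8 CPM in F1_Ctl. Fos overlapped within F1, lay below 2 of 3 controls in F0, and had a joint log2 fold change of 0.18 ± 0.37 (SE, adjusted p = 0.831). Arc, a synaptic activity gene, had 0.53 ± 0.37 (SE, adjusted p = 0.456), with −0.29 in F0 and 1.35 in F1. Egr1 had 0.35 ± 0.41 (SE, adjusted p = 0.68), with −0.69 in F0 and 1.39 in F1. The interaction did not pass for Fos (adjusted p = 0.329), Arc (0.244), Egr1 (0.138) or Bdnf (0.389). Of 10 neurotrophins and receptors 8 were negative with a median of −0.16, and at an unadjusted p under 0.05 edgeR gave 1 higher and 2 lower, while DESeq2 called 1 higher and 1 lower. Bdnf, the brain-derived neurotrophic factor, had 51.7, 54.9 and 63.5 CPM in F0_Dep against 65.2, 51.4 and 55.7 CPM in F0_Ctl, and 39, 52.9 and 50.7 CPM in F1_Dep against 63.9, 62.5 and 61.4 CPM in F1_Ctl. In F1 all Bdnf values of the stress lineage were below the controls, in F0 they overlapped, and the joint log2 fold change was −0.21 ± 0.10 (SE, adjusted p = 0.281).

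Choroid plexus and striatum markers had median changes of opposite sign in the generations, and none was called by edgeR. Ependymal markers had medians of −1.12 in F0 and −0.02 in F1, also without a call. The choroid plexus list had 18 of 19 negative with a median of −2.62 in F0 and 0.17 in F1, and the striatum list 13 of 13 positive with −0.58 in F0 and 1.61 in F1. Both directions rested on 1 library. Without F0_Ctl 3, 17 of 19 choroid plexus markers were positive (median 0.53, against −0.94 with all libraries), and without F1_Dep 1, 4 of 13 striatum markers were positive (median −0.12, against 0.78). At an unadjusted p under 0.05 edgeR gave 0 choroid plexus markers and 1 striatum marker, against 19.6% of all genes, and DESeq2 called 0 and 1. Ttr, the transthyretin gene of choroid plexus, had 112, 197 and 5.67 CPM in F0_Dep against 3, 5.09 and 4636 CPM in F0_Ctl, and 2604, 4085 and 3741 CPM in F1_Dep against 94.2, 531 and 8263 CPM in F1_Ctl. Ttr ranged widely within 3 of the 4 groups, and its log2 fold change was −1.82 ± 1.85 (SE, adjusted p = 0.629). Drd2, the dopamine receptor of striatal neurons, reached 45.5 CPM in F1_Dep 1 and at most 6.24 CPM elsewhere, with a log2 fold change of 0.93 ± 0.69 (SE, adjusted p = 0.485). With the median levels of the choroid plexus and striatum markers as covariates, all 78 genes stayed called among 582. With F0_Ctl 3, F1_Ctl 3 and F1_Dep 1 left out, 20 of the 78 were among 48 calls, 43 of them higher and 5 lower, and all 78 kept their sign. This fit still set choroid-rich F1_Dep libraries against F1_Ctl libraries with less choroid plexus.

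A few calls need care in reading. Cep170b and ENSMUSG00000115972 have equal counts in all 12 libraries, so they are 1 measurement. F0 FPKM values were available for 75 of the 78. Their sign matched that of the joint fit for 73, of which 27 passed in FPKM, and differed for Gm28661 and Gm28437. Tectb, a protein of the tectorial membrane of the ear, had the lowest fold among called genes, −2.32 on the log2 scale, but averaged under 1 CPM in each set, and it was named after its values were seen.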

How the data were processed

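Gene levels in 12 hippocampal libraries came from the expected counts deposited by the authors, covering 35812 Ensembl gene IDs (27.2% of values not whole). The authors also deposited FPKM values, normalized by them for gene length and depth, available here for 9 libraries (not for F1_Ctl). Only those of the F0 libraries were fitted. HISAT2, Cufflinks 2.2.1 and mm10 are named without roles, per the submitters' processing notes; neither counting tool nor annotation nor strand setting is stated, so overlapping and antisense genes cannot be told apart. Symbols were matched by Ensembl ID for 35281 IDs; the 531 without one held 0.549% of counts, and 46 IDs with a repeated symbol were added together. Of 26305 FPKM positions, 99.97% overlapped the same gene of GENCODE M21 on GRCm38.

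Rounded counts were fitted with edgeR 4.0.16 (R 4.3.3; TMM, filterByExpr, quasi-likelihood F-test, generation plus stress lineage), with Benjamini-Hochberg adjusted p under 0.05. Each generation's change and the interaction came from a 4-group fit. SEs were derived from the fold change and F and are approximate. On simulated counts the test was checked. Single values were tested by an exact permutation within generations (400 arrangements, smallest p 0.005). For FPKM, limma 3.58.1 was run on log2(FPKM + 1) over genes with at least 1 FPKM in at least 3 libraries, which understates low genes. CPM are TMM-scaled. Promoter windows are RefSeq's on GRCm38.p6, searched in the direction of the gene. Each motif reads the same on both strands, so this search covers both. With no cultures or litters named, p-values measure the spread between these mice.

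The comparison and the 36 gene lists were chosen with earlier results of these data known. Genes named by rule are 12 rises and 12 falls, taken by size of log2 fold change among called genes with a mean of at least 2 CPM and groups separated within each generation (predicted genes and pseudogenes passed over), up to 3 further called members per list, and 14 stress, activity and tissue genes whatever their values. Further list members and called genes are named as examples, chosen after their values were seen, many of them near the threshold. List genes with no row in the table were not analysed here. Alternatives were DESeq2 1.42.0, voom, other scalings, filters and designs, FPKM and library omissions.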

Additional observations from a re-analysis of the deposited data

Results flagged for a closer look

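For 11 of 16164 genes (0.0681%) the stress-lineage change differed between the generations by edgeR's interaction test, and none of them is among the 78 genes of the joint comparison. They were chosen by this test after its values were seen. The interaction, the F1 change minus the F0 change on the log2 scale, is given with its approximate SE.

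The interaction was negative in 7 genes. Of these, Lrrc17, Galnt2, Unc5d and Lyst passed in the counts as higher in F0 and did not pass in F1. Sema5a, Adarb2 and Kctd4 passed in the counts as lower in F1 and did not pass in F0. Lrrc17, a leucine-rich repeat protein, had an interaction of −2.92 ± 0.32, adjusted p = 0.0161, with changes of 2.92 in F0 and −0.0017 in F1. Galnt2, a Golgi glycosyltransferase, had −1.21 ± 0.15, adjusted p = 0.0161 (1.01 in F0 and −0.21 in F1). Unc5d, a netrin receptor, had −1.21 ± 0.17, adjusted p = 0.0316 (0.76 in F0 and −0.45 in F1), and Lyst, a regulator of lysosome traffic, −1.43 ± 0.20, adjusted p = 0.0316 (0.80 in F0 and −0.63 in F1). Sema5a, an axon guidance protein, had −1.62 ± 0.23, adjusted p = 0.0316 (0.49 in F0 and −1.13 in F1), and Adarb2, an RNA-binding relative of the editing enzymes, −1.56 ± 0.24, adjusted p = 0.0469 (0.45 in F0 and −1.11 in F1). Kctd4 had −1.56 ± 0.23, adjusted p = 0.0367 (0.28 in F0 and −1.28 in F1).

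The interaction was positive in the other 4 genes, of which Plk3, Vgf and Krt80 passed as higher in F1 and mt-Co2 as lower in F0. Plk3, a stress-responsive kinase, had 1.49 ± 0.18, adjusted p = 0.0161 (−0.55 in F0 and 0.94 in F1), and Vgf, a secreted neuropeptide precursor, 1.07 ± 0.16, adjusted p = 0.0367 (−0.40 in F0 and 0.66 in F1). Krt80, a keratin, had 3.16 ± 0.49, adjusted p = 0.0479 (−0.75 in F0 and 2.41 in F1) at a mean of 9.96 CPM in F1_Dep and 1.87 CPM in F1_Ctl. mt-Co2 had 2.14 ± 0.32, adjusted p = 0.0465 (−2.55 in F0 and −0.41 in F1), with means of 1360 CPM in F0_Dep and 7981 CPM in F0_Ctl. The nuclear copies Gm28661 and Gm28437 of mitochondrial genes held counts in the same F0_Dep libraries. Whether reads of mt-Co2 were counted on such a copy was not tested.

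In the F0 FPKM values the change of Galnt2 was 0.07 (adjusted p = 0.648) and that of mt-Co2 was −0.22 (adjusted p = 0.284), so these interactions depend on the count table. Passing there with the sign of the counts were Lyst (1.22), Unc5d (0.77), Kctd4 (0.74), Sema5a (0.69), Plk3 (−0.69) and Vgf (−0.79). Adarb2 did not pass (0.33, adjusted p = 0.0758), and Lrrc17 and Krt80 had no value there. The interaction itself was not tested in FPKM. Dentate granule cell markers had medians of 0.10 in F0 and −1.17 in F1, and choroid plexus and striatum markers also had medians of opposite sign. The part of unequal tissue content in these interactions was not tested. The number of genes past the interaction threshold ran from 0 without F0_Dep 1 or F1_Ctl 2 to 224 without F1_Ctl 3.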

How the results depend on the processing

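With 1 library left out, calls ran from 5 to 1081 (4 to 440 higher, 1 to 641 lower), and interaction calls from 0 to 224. Other settings gave, as all, higher and lower calls, 968, 511 and 457 with DESeq2 (77 of the 78 shared); 402, 223 and 179 with voom (78); 128, 71 and 57 with the effect averaged over 4 group means (76); 582, 380 and 202 with the tissue covariates (78); and 459, 226 and 233 at an adjusted p under 0.1. Without a filter on low counts there were 39, 26 and 13 (39 shared), without a generation term 32, 21 and 11 (32), in F0 alone 23, 16 and 7 (10) and in F1 alone 0, where 2033 genes had an unadjusted p under 0.05 in edgeR. The 3 libraries that stand apart left out gave 48 and 5 lower. A stricter filter gave 72 higher (71.3% of its calls) and 29 lower, against 47 and 31. F0 FPKM gave 1507, 747 and 760, with a pseudocount of 0.1 1454, 716 and 738, and unfiltered 0 (5237 at an unadjusted p under 0.05). RLE size factors gave 78, no scaling 60 and robust spread estimation, chosen after seeing the data, 77. Interaction calls were 6 without scaling and 63 unfiltered.

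With the replicate number as a block 12 genes passed (10 higher, 2 lower; all 12 among the 78), and 4 by interaction. Same-numbered libraries did not deviate together (correlations from −0.113 to 0.0363), so the numbers are not read as pairs.

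All called genes with a value kept their sign in the count-based alternatives, while FPKM turned Gm28661 and Gm28437 (73 of 75 kept it). Medians of tissue marker lists turned with single libraries: ependymal markers had −0.55 with all libraries and 0.28 without F0_Ctl 3. With 3 libraries a group, counts of calls are imprecise, and the cause of the wide range of counts was not tested.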

Other observations

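Genes of synaptic transmission leaned upwards without a call. Over all genes, 45.8% were positive, and 19.6% had an unadjusted p under 0.05 in edgeR. Of 24 presynaptic vesicle release genes 21 were positive, with a median log2 fold change of 0.16 and 0 called by edgeR (8 higher and 1 lower at an unadjusted p under 0.05; 3 higher and 1 lower by DESeq2). Of 29 postsynaptic density genes 23 were positive, with a median of 0.13 and 0 called by edgeR (12 higher and 0 lower at an unadjusted p under 0.05; 5 higher by DESeq2). Sv2b, a synaptic vesicle protein, had 0.47 (adjusted p = 0.096), and Cacng2, which carries AMPA receptors to the synapse, 0.45 (adjusted p = 0.0725).

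Interferon-stimulated genes and microglia markers leaned downwards. Of all 16164 genes, 8758 were negative, and 1802 were lower at an unadjusted p under 0.05 in edgeR. Of 20 interferon-stimulated genes 16 were negative, with a median of −0.80 in F0 and −0.23 in F1, and 0 called by edgeR (4 lower at an unadjusted p under 0.05; 1 lower by DESeq2). The antiviral GTPase gene Gbp3 had −0.75 (adjusted p = 0.0913). Of 16 microglia markers 15 were negative, with a median of −0.20, and 0 were called by edgeR (1 lower at an unadjusted p under 0.05; 0 by DESeq2).

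Of the 78 called genes, 56 are in none of the 36 lists. The following were named after their values were seen and form no tested group. Spen, a transcriptional corepressor, averaged 114 ± 20.3 CPM in stress-lineage and 72.2 ± 14.2 CPM in control libraries (SD, n = 6 each), a log2 fold change of 0.64 ± 0.13 (SE, adjusted p = 0.0482). Setd1b, a histone H3 lysine methyltransferase, had 0.57 ± 0.093 (SE, adjusted p = 0.0284), Bcorl1, a corepressor, 0.48 ± 0.093 (SE, adjusted p = 0.0482), and Mtf1, the metal-responsive transcription factor, 0.33 ± 0.063 (SE, adjusted p = 0.048). P4ha2, a collagen prolyl hydroxylase, had 0.70 ± 0.11 (SE, adjusted p = 0.0226), and Cerk, ceramide kinase, 0.32 ± 0.054 (SE, adjusted p = 0.0291). Among genes called lower, the mitochondrial ribosomal protein genes Mrps9 and Mrpl57 had −0.35 ± 0.066 (SE, adjusted p = 0.048) and −0.47 ± 0.086 (SE, adjusted p = 0.0406), and Timm10, a carrier of mitochondrial protein import, had −0.48 ± 0.093 (SE, adjusted p = 0.0482). Of these calls, Bcorl1, Mtf1, Cerk, Mrpl57 and Timm10 held, among the omissions, only without F0_Ctl 2 or F1_Ctl 1, and Mrps9 only without F1_Ctl 1 (adjusted p up to 0.15). Spen held only without F0_Ctl 2, F1_Dep 1 or F1_Ctl 1 and Setd1b only without F0_Ctl 2, F1_Dep 1, F1_Ctl 1 or F1_Ctl 2. P4ha2 was lost without F0_Dep 2, F0_Ctl 1, F1_Dep 2, F1_Dep 3, F1_Ctl 2 or F1_Ctl 3.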
